A study of Mus musculus with 85 samples.

Results

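The microRNAs (miRNAs) described here are mmu-miR-208a-3p, mmu-miR-208b-3p and mmu-miR-499-5p (written without the prefix below), which mice carry in introns of 3 genes for myosin heavy chain. They were taken by name, as 3 of the 1977 rows of a table of miRNA counts, of which 548 had at least 1 count. The table covered 85 heart libraries, 1 per animal, all from females of the HMDP, the Hybrid Mouse Diversity Panel of inbred strains. The animals had the same treatment: 8 weeks on chow were followed by 8 weeks on HF/HS food, rich in fat and sucrose, and hearts were taken at 16 weeks of age. There was no chow group, the strain of each animal is not in the labels used here, and libraries are named below by the library number in their column names.

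Myosin heavy chain is the motor of the heart muscle fibre. Myh6 encodes the fast α isoform, which prevails in the adult mouse ventricle, Myh7 the slower β isoform, which is typical of the fetal ventricle and returns under load, and Myh7b a related, little translated myosin. Each miRNA is cut from an intron of its host's transcript, and miR-208a is known for promoting β myosin under stress. A miRNA finds its targets mainly through its seed, bases 2 to 8 counted from its 5′ end.

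The mature sequences show how closely the 3 are related. They are from RefSeq on GRCm38.p6, written 5′ to 3′ with the seed in capitals.
miR-208a-3p: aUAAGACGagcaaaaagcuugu
miR-208b-3p: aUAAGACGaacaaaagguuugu
miR-499-5p: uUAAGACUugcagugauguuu
miR-208a-3p and miR-208b-3p shared the seed UAAGACG and 19 of 22 bases. With miR-208a-3p as the reference and positions counted from 1 at the 5′ end, miR-208b-3p differed by G10A, A16G and C18U. How reads that fit both were counted is not given in the sources used here. miR-499-5p is 21 bases long and had a single difference from miR-208a-3p in the seed, G8U, with 12 of 21 positions identical over its whole length. Bases 2 to 7, UAAGAC, occurred at that place in these 3 of the 1679 mature mouse miRNAs compared and in no other.

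In the GENCODE annotation of GRCm38, the build the counts were made on, each miRNA gene lay in an intron on its host's strand, and no exon and no other gene overlapped it. Mir208a spanned chr14:54949060-54949142 on the minus strand, in intron 29 of Myh6. Mir208b spanned chr14:54975700-54975776 on the same strand, in intron 31 of Myh7, with 26557 bases between the 2 miRNA genes. Mir499 spanned chr2:155622880-155622958 on the plus strand, in intron 19 of Myh7b.

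The libraries were shallow, with 1457 to 30202 miRNA counts each (median 12248) and 95 to 213 miRNAs detected. They fell into 2 sets along the first principal component of 49 other miRNAs, which held 74% of the variance: set A had 57 libraries, and set B had 28, numbered 1 to 10, 14 to 18, 20, 21 and 49 to 59. The sets came from the data and are not groups of the study, so differences between them carry no test, and correlations were computed within each set. Library 14, the smallest, lay between the sets on this component and was placed in set B; values of set B are given with and without it where it matters. The cardiomyocyte miRNAs miR-1a-3p, miR-133a-3p and miR-133b-3p together made up 17.8% to 27.6% of counts in set A and 17.2% to 23.4% in set B, with members that went opposite ways between the sets. Pooled, miR-1a-3p held 19.3% in set A and 13.4% in set B, miR-133a-3p 2.89% and 7.43%, and miR-133b-3p 0.119% and 0.220%. Of the 2 neural miRNAs, miR-124-3p had no count and miR-9-5p had 307, spread over 81 libraries. The skeletal muscle miR-206-3p had 1 count. The p-values below measure the spread between animals of 1 diet group whose strains are mixed. By the title the authors gave the data, there were as many strains as libraries, although their text names fewer for miRNA. Spread between animals and spread between strains therefore cannot be told apart. The tests took animals as independent and did not model relatedness between strains, for which the paper's association mapping corrected, so p-values may be too small.

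miR-208a-3p and miR-499-5p were detected in all 85 hearts, and miR-208b-3p had at least 1 count in 35. Together the 3 held 13698 of 1142199 counts, or 1.20% (95% Wilson interval 1.18 to 1.22, which here and below covers counting error only). miR-208a-3p had 7878 counts, 0.690% of all (0.675 to 0.705), and was the 29th most abundant of the 548 miRNAs. miR-499-5p followed at place 32 with 5746 counts, 0.503% (0.490 to 0.516). miR-208b-3p, at place 154, had 74 counts, 0.00648% (0.00516 to 0.00813). Mature miRNAs are of nearly one length, so these shares need no correction for length, but how well each miRNA is captured in a library was not measured.

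By library, miR-208a-3p had 4 to 318 counts with a median of 81, and miR-499-5p had 11 to 286 with a median of 60. miR-208b-3p was at 0 in 50 libraries, and its highest count was 6. It was above 3 counts, the floor used here for a count of 0, in 4 libraries: 6 in library 41, 6 in library 83, 5 in library 44 and 4 in library 63. These 4 were all in set A, whose libraries had 68 of the 74 counts.

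**Figure D1:**
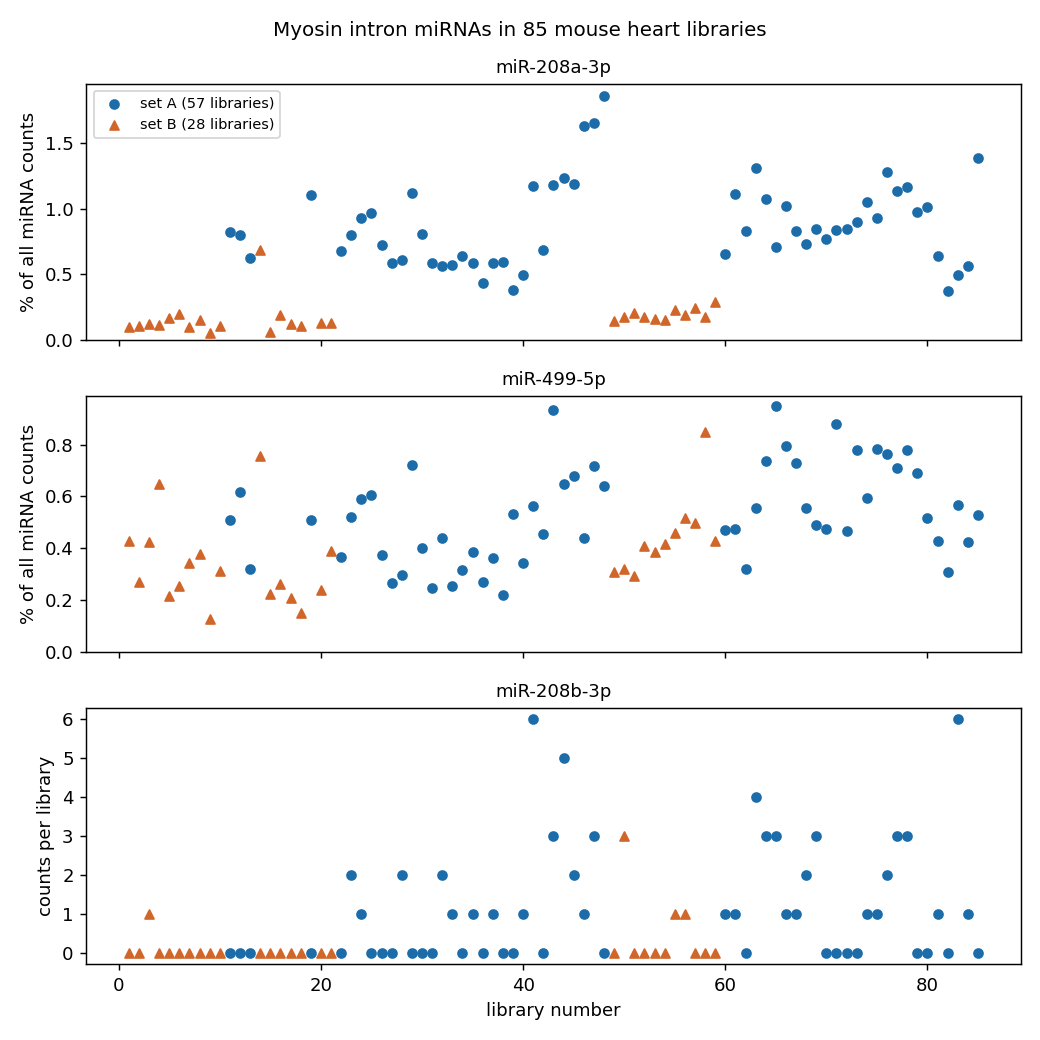
Share of all miRNA counts, in percent, of miR-208a-3p and miR-499-5p, and counts of miR-208b-3p, in each of 85 libraries along the library number. Points are libraries, with set A as blue circles and set B as orange triangles. miR-208a-3p was at most 0.290% in every set B library but library 14 (0.686%), while the miR-499-5p values of the sets overlapped and miR-208b-3p never passed 6 counts.

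miR-208a-3p was the member that differed most between the sets. In set A it took 0.372% of counts in the lowest library (82), 0.827% in the median one and 1.86% in the highest (48). In set B it took 0.0546% in the lowest (9), 0.152% in the median one and 0.686% in the highest, which was library 14. Without library 14, which had 10 miR-208a-3p counts, the highest of set B was 0.290% (library 59), below every library of set A. On the log2 CPM scale (counts relative to the library total, with TMM scaling), its mean over set A was 13.13 ± 0.53 (SD, n = 57), and over set B it was 10.53 ± 0.64 (SD, n = 28). The difference of 2.60 was the third highest of the 51 miRNAs that passed the filter on low counts, over which differences ran from -1.63 to 3.19 with a median of -0.15. Without library 14, 7 of these 51 miRNAs (13.7%) had no overlap between the sets, and miR-208a-3p was among them; with it, 5 of 51 (9.8%) had none and miR-208a-3p was not among these.

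miR-499-5p differed less. It took 0.219% (library 38), 0.515% and 0.947% (library 65) of counts in the lowest, median and highest library of set A, and 0.127% (library 9), 0.360% and 0.849% (library 58) in set B. Its mean log2 CPM over set A was 12.42 ± 0.52 (SD, n = 57), and over set B it was 11.63 ± 0.57 (SD, n = 28). The difference of 0.79 ranked 12th of 51, and 20 of the 28 set B libraries were above the lowest library of set A. CPM without TMM lowered the median difference of all 51 miRNAs to -0.43 and that of miR-499-5p to 0.52.

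miR-208b-3p had 68 counts in set A, 0.00817% of all, and 6 in set B, 0.00194%. In set B it was at 0 in 24 of 28 libraries, with 3 counts in library 50 and 1 in each of libraries 3, 55 and 56. Since most libraries were at 0, no fold between single libraries can be read.

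Some markers of other cells moved with the sets, and their part in these differences was not tested. All 4 leukocyte markers had counts, and their sum took 0.709% to 3.96% of a library in set A (median 1.74%) and 0.376% to 1.01% in set B (median 0.582%). Its members did not move together: pooled, miR-142a-3p held 1.69% of set A and 0.240% of set B, while miR-223-3p (0.0705% and 0.169%), miR-150-5p (0.0304% and 0.144%) and miR-155-5p (0.0303% and 0.0575%) were higher in set B. The liver marker miR-122-5p took 0.0% to 0.204% in set A (median 0.0168%) and 0.0% to 0.514% in set B (median 0.0491%). The smooth muscle pair had medians of 3.97% in set A and 4.08% in set B, but pooled, miR-143-3p held 3.82% and 3.57% and miR-145a-5p 0.164% and 0.524%. Medians of the other lists were 6.57% and 5.83% for the endothelial pair, 0.0738% and 0.121% for the fibroblast pair, 0.353% and 0.331% for the 3 erythroid miRNAs and 0.0218% and 0.0337% for the neural list. Among the erythroid ones, miR-451a (0.294% and 0.193%) and miR-144-3p (0.050% and 0.00452%) were higher in set A and miR-486a-5p (0.0869% and 0.193%) in set B. In bulk tissue, fewer cells of a type and less RNA per cell cannot be told apart.

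Levels also differed along the library numbers, of which the sets occupy separate runs. Among libraries 1 to 10 of set B, miR-208a-3p held 0.118% of the pooled counts and miR-499-5p 0.337%. Among libraries 49 to 59, also of set B, they held 0.200% and 0.452%. In set A, miR-208a-3p was at 0.895% in libraries 22 to 48 and 0.885% in libraries 60 to 85, whereas miR-499-5p was at 0.469% and 0.610%. Within the first of these runs the 3 highest miR-208a-3p shares of all 85 libraries stood side by side, 1.63% in library 46, 1.66% in library 47 and 1.86% in library 48.

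Slopes on the library number were tested over the 51 miRNAs by the quasi-likelihood method of edgeR, adjusted after Benjamini and Hochberg, and 86.3% of the miRNAs passed, 41.2% with a rise. miR-208a-3p rose by 0.23 log2 units per 10 libraries (adjusted p = 6.18e-05, n = 85) and miR-499-5p by 0.15 (adjusted p = 1.53e-07, n = 85). With the set as a covariate the slopes were 0.08 (adjusted p = 0.00978) and 0.10 (adjusted p = 0.000155), where 66.7% of all passed, 29.4% with a rise. miR-208b-3p was tested only without the filter on low counts, where it rose by 0.25 (adjusted p = 0.0203, edgeR) and 18.1% of 548 miRNAs passed, 9.12% with a rise. That slope was not adjusted for the set, and it rests on 0 to 6 counts per library, with 68 of 74 counts in set A. What the library number stands for is not in the labels.

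The miR-208b share of the miR-208 counts asks how much of the pair comes from the Myh7 intron, with each library as its own control. Almost all miR-208 in these hearts was miR-208a. The share came to 0.931% over all libraries (74 of 7952 counts, 0.742 to 1.17). Set A had 0.915% (68 of 7435, 0.722 to 1.16) and set B 1.16% (6 of 517, 0.533 to 2.51), so the interval of set B enclosed the value of set A, although the miR-208a-3p level differed by 2.60 log2 units. Library 50 gave 3 of the 6 counts of set B, and without it the share there was 0.619% (3 of 485, 0.211 to 1.80). In the longest runs of set A the share was 1.02% in libraries 22 to 48 (0.723 to 1.45) and 0.907% in libraries 60 to 85 (0.659 to 1.25).

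Single libraries gave shares from 0% to 9.38%, with a median of 0%. The highest, 9.38% in library 50, was 3 of 32 counts, and the next, 8.33% in library 3, was 1 of 12. Among libraries with at least 50 miR-208 counts the highest were library 83, with 5.77% (6 of 104), and library 44, with 4.72% (5 of 106). Where no miR-208b-3p was counted, the upper Wilson limit of the share ran from 1.83% in library 48, with 206 miR-208a-3p counts, to 49% in library 15, with 4.

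**Figure D2:**
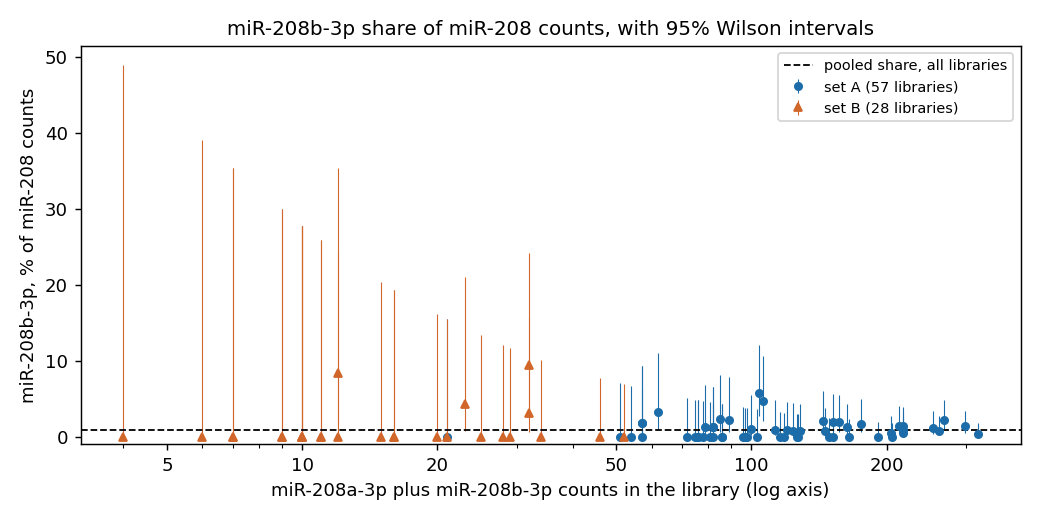
Share of miR-208b-3p in the miR-208 counts of each library, in percent with 95% Wilson intervals, against the number of miR-208a-3p plus miR-208b-3p counts on a log axis. Set A libraries are blue circles, set B libraries orange triangles, and the dashed line is the pooled share of 0.931%. Intervals of libraries with few counts are wide, and the highest share, 9.38%, belongs to a library with 32 counts.

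The share varied between libraries by more than counting alone in one measure and not in another. In a chi-square test of homogeneity over the 85 libraries, the statistic divided by its degrees of freedom was 1.57 (p = 0.000614), and within set A it was 1.67 (p = 0.00126). No library had an expected miR-208b-3p count of 5 or more (the highest was 2.97), so these p-values are approximate, and they set the spread between animals against counting error alone. Without libraries 83, 44 and 50, which were chosen for their high counts or shares so that the value had to fall, it was 0.92 over the rest (p = 0.671) and 1.03 within set A (p = 0.406), and leaving out library 83 alone gave 1.30 within set A (p = 0.0683). Leaving out library 44 alone gave 1.48 within set A (p = 0.0125). Over all libraries, leaving out 83, 44 or 50 alone gave 1.36, 1.47 and 1.34 (p = 0.0153, p = 0.0033 and p = 0.0203 by the same test). Within set B the statistic divided by its degrees of freedom was 1.19 (p = 0.224). The SD of the shares was 1.70 percentage points over all libraries, 1.18 in set A and 2.46 in set B, where counting alone gives 1.75, 0.955 and 3.04, so it was above counting in set A and below it over all and in set B.

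The log2 ratio of miR-208b-3p to miR-208a-3p, with 0.5 added to each count, had no relation past the threshold with any of 50 other miRNAs in either set by permutation (0.0% called in each, against 4 and 18 at an unadjusted p under 0.05). In set A its largest correlations were with miR-26b-5p (r = 0.31), miR-26a-5p (r = 0.30) and miR-99a-5p (r = 0.29). In set B they were with miR-142a-3p (r = -0.57), miR-199b-3p (r = 0.52) and miR-199a-3p (r = 0.52). With miR-499-5p the ratio had r = 0.01 in set A (p = 0.933) and r = -0.29 in set B (p = 0.128). With 2 added to each count in place of 0.5 these became -0.31 (adjusted p = 0.0288 by permutation) and -0.40 (adjusted p = 0.0381), both past the threshold. Where miR-208b-3p is at 0, as in 24 of 28 libraries of set B, the ratio is set by the miR-208a-3p count and the added 0.5 alone, and its r of -0.47 with the log2 library total and -0.48 with the library number in set B (adjusted p = 0.0325 for each, over 6 relations) rest on such libraries.

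The ratio of miR-499-5p to miR-208a-3p counts, which was examined after the values had been seen, separated the sets almost wholly. In set A its median was 0.619, from 0.270 in library 46 to 1.38 in library 39, and miR-208a-3p was the more abundant in 53 of 57 libraries. In set B its median was 2.33, from 1.10 in library 14 to 5.60 in library 4, and miR-499-5p was the more abundant in all 28. The pooled ratio was 0.618 in set A (0.595 to 0.641) and 2.34 in set B (2.11 to 2.60). Libraries 39, 65 and 83 of set A reached the lowest value of set B, and libraries 5, 6, 14 and 16 of set B reached the range of set A. Neither the library total nor the library number had a relation with the ratio past the threshold within a set (4 relations, the lowest adjusted p = 0.231 by permutation). Of 51 miRNAs, the difference in mean log2 CPM between the sets ranked 3 for miR-208a-3p (2.60) and 12 for miR-499-5p (0.79). Every miRNA ranked below miR-499-5p was farther from miR-208a-3p on this scale. A set difference in such a ratio is thus not particular to this pair, and ratios to other miRNAs were not examined.

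**Figure D3:**
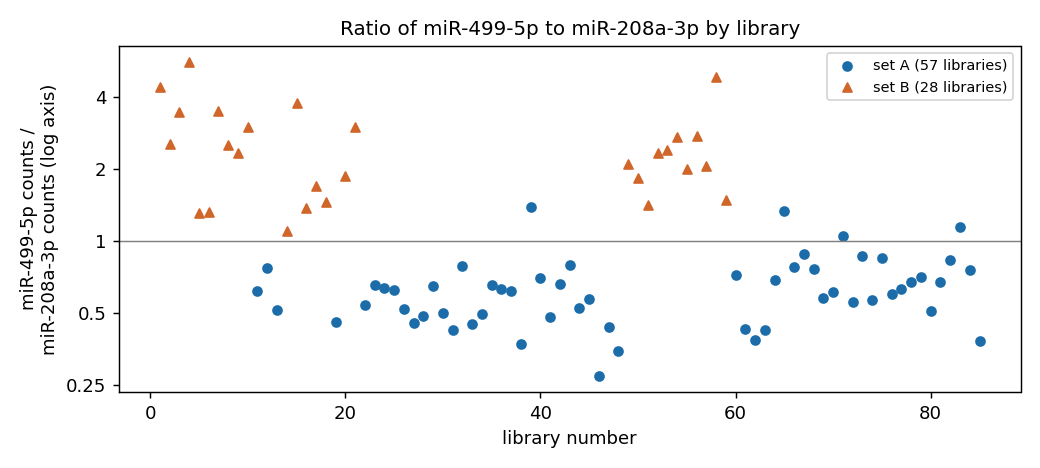
Ratio of miR-499-5p to miR-208a-3p counts in each of 85 libraries, on a log axis, along the library number, with a grey line at equal counts. Blue circles (set A) lie between 0.270 and 1.38 around a median of 0.619, and orange triangles (set B) between 1.10 and 5.60 around a median of 2.33.

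Across animals, miR-208a-3p and miR-499-5p rose and fell together, although their host genes lie on different chromosomes. In set A, Pearson's r of their log2 CPM was 0.64 and Spearman's rho 0.70 (n = 57, p = 1e-05 for each by permutation, the smallest that 100000 resamples can give, adjusted p = 0.000333 over 50 miRNAs). No other of the 50 miRNAs had a larger r with either of them in set A. Among 1176 pairs of other miRNAs in this set, 14.2% passed an adjusted p of 0.05, 7.06% with a positive r, and the median r was 0.00. Without libraries 46 and 48, which were farthest from the median of miR-208a-3p, r was 0.67. It was 0.61 given the library total and number, and 0.54 given the first principal component of the other miRNAs within the set (p = 4e-05 by permutation).

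In set B the same relation was weaker. There r was 0.57 and rho 0.45 (n = 28, p = 0.00142 and p = 0.0187 by permutation, adjusted p = 0.0129 for r over 50 miRNAs), where 28.4% of the pairs of other miRNAs passed, 17.5% with a positive r. Without library 14, r was 0.45 (p = 0.0173), and without libraries 14 and 15 it was 0.41 (p = 0.0385, adjusted p = 0.0578 over the 6 relations between members). Given the first principal component it was 0.24 (p = 0.222). The difference between the sets in r was not tested.

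**Figure D4:**
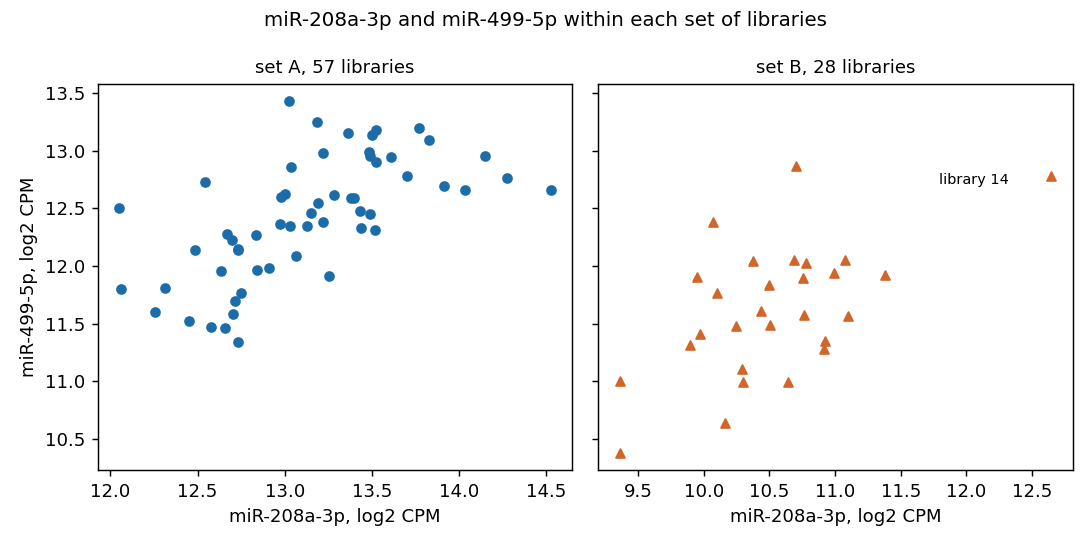
log2 CPM of miR-499-5p against that of miR-208a-3p, with set A (57 libraries, blue circles) on the left and set B (28 libraries, orange triangles) on the right. Points in set A rise together (r = 0.64), and in set B the isolated point at the right is library 14, without which r falls from 0.57 to 0.45.

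For miR-208b-3p the relation with miR-499-5p depended on how many tests were counted. In set A its r was 0.33 with miR-499-5p, which passed over the 6 relations between members (adjusted p = 0.0241 by permutation) and did not over the 51 miRNAs tested (adjusted p = 0.125). With miR-208a-3p its r was 0.24 in set A, which passed in neither, and in set B the values were 0.15 and 0.09. In set A 2 of 51 miRNAs (3.92%) passed, miR-125a-5p (r = -0.43) and miR-99a-5p (r = 0.40), followed by miR-22-3p (r = 0.35). In set B 0 of 51 passed (0.0%, and 0 at an unadjusted p under 0.05), with miR-16-5p (r = -0.36), miR-26b-5p (r = 0.32) and let-7g-5p (r = 0.28) first. At 0 to 6 counts per library these values are descriptions of sparse data.

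Beyond the myosin miRNAs, miR-208a-3p varied with many others in set A. There 27 of 50 passed (54%), 12 with a positive and 15 with a negative r. Given the first principal component 16 passed, and with no filter 17 of 492. After miR-499-5p, its closest were miR-30b-5p (r = 0.58, adjusted p = 0.000333) and miR-125a-5p (r = -0.56, adjusted p = 0.000375 by permutation). For miR-499-5p 11 of 50 passed (22%), 4 positive and 7 negative (19 with DESeq2 size factors and 6 without TMM), led after miR-208a-3p by miR-125a-5p (r = -0.63, adjusted p = 0.00025) and let-7f-5p (r = -0.54, adjusted p = 0.000333 by permutation). Both members were thus lower where miR-125a-5p was higher.

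In set B 17 of 50 passed for miR-208a-3p (34%) and 24 of 50 for miR-499-5p (48%). The closest to miR-208a-3p were miR-29c-3p (r = 0.78), miR-30e-5p (r = 0.76) and miR-142a-3p (r = 0.70). Without library 14 these values were 0.61, 0.64 and 0.65, and Spearman's rho was 0.58, 0.66 and 0.62, so their order was not stable. The closest to miR-499-5p were miR-23b-3p (r = -0.67), let-7a-5p (r = -0.66) and miR-125b-5p (r = -0.66). Without library 14 these were -0.59, -0.60 and -0.60, and by Spearman's rho let-7a-5p and miR-125b-5p did not pass (-0.48 and -0.46). The counts of 17 and 24 did not hold given the first principal component of the set, where 7 and 0 of 50 passed. Without library 14 the counts were 10 and 19. Of the miRNAs that passed with miR-208a-3p, 10 did so in both sets, all with the same sign, which is 37% of those in set A, where 34% of all 50 passed in set B, and 58.8% of those in set B, where 54% of all passed in set A. The shared part was thus near the background. For miR-499-5p there were 7, all with the same sign, 63.6% of those in set A (48% of all passed in set B) and 29.2% of those in set B (22% of all passed in set A).

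Of the 3 cardiomyocyte miRNAs, miR-1a-3p, the most typical miRNA of heart and skeletal muscle, passed with miR-208a-3p in set A (r = 0.30, adjusted p = 0.0412 by permutation) but not with miR-499-5p (r = 0.29, adjusted p = 0.0771). Its relation with miR-208a-3p was lost with Spearman's rho (0.21, adjusted p = 0.202) and given the first principal component (0.13, adjusted p = 0.466). miR-133a-3p and miR-133b-3p passed with neither member in set A, with r from -0.26 to 0.17. In set B miR-1a-3p passed with both (r = 0.48 and r = 0.56), and miR-133a-3p passed with miR-499-5p, with a negative r of -0.55. None of these 3 held given the first principal component, where miR-1a-3p had r = 0.023 with miR-208a-3p and r = 0.041 with miR-499-5p, and the r of miR-133a-3p with miR-499-5p turned to 0.053.

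Of 14 miRNAs known from studies of cardiac hypertrophy, 10 passed the filter on low counts, and they did not share a sign. In set A, 3 passed with miR-208a-3p with a positive r and 4 with a negative one, with a median r of -0.21 over the 10, against -0.01 over all 50 miRNAs. These were 7 of 10, where 54% of all 50 passed. The positive ones were miR-29b-3p (r = 0.43), miR-22-3p (r = 0.39) and miR-21a-5p (r = 0.34), the last of which is known from fibroblasts of the stressed heart. The negative ones were miR-29a-3p (r = -0.48), miR-199a-3p (r = -0.42), miR-199b-3p (r = -0.40) and miR-378a-3p (r = -0.33). Given the first principal component, 4 of the 7 no longer passed by permutation, miR-21a-5p (r = 0.12, adjusted p = 0.488), miR-199a-3p (r = -0.24, adjusted p = 0.178), miR-199b-3p (r = -0.22, adjusted p = 0.229) and miR-378a-3p (r = -0.17, adjusted p = 0.331). Without TMM miR-21a-5p (r = 0.28), miR-199a-3p (r = -0.31) and miR-199b-3p (r = -0.30) did not pass either. miR-29a-3p and miR-29b-3p, of one family, thus had opposite signs. With miR-499-5p in set A, miR-29b-3p passed with a positive r (0.44) and miR-199a-3p (-0.50) and miR-199b-3p (-0.52) with a negative one, with a median of -0.10 against -0.05 over all, and without TMM the miR-199 pair did not pass (-0.33 and -0.35). These were 3 of 10, where 22% of all 50 passed. The mature miR-199a-3p and miR-199b-3p can share reads, so they may not be separate measurements. In set B, miR-29c-3p (r = 0.78, and 0.61 without library 14) and miR-21a-5p (r = 0.65) passed with miR-208a-3p, and miR-29c-3p (r = 0.51), miR-21a-5p (r = 0.50) and miR-29b-3p (r = 0.44) with miR-499-5p. Given the first principal component, of these 5 only miR-29c-3p with miR-208a-3p passed (r = 0.65), and the r of miR-499-5p with miR-21a-5p and miR-29b-3p turned to -0.13 and -0.024. Without the component, the calls in set B were 2 and 3 of the 10, below the 34% and 48% of all 50 miRNAs.

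Markers of other cell types also varied with the members. miR-142a-3p, the only one of the 4 leukocyte markers that passed the filter and so was tested, had r = 0.45 with miR-208a-3p in set A (adjusted p = 0.0025 by permutation) and r = 0.70 in set B (0.65 without library 14). Given the first principal component the values were 0.08 in set A and 0.45 in set B, neither past the threshold. The endothelial miR-126a-5p had r = 0.43 with miR-208a-3p in set A and r = 0.54 in set B. For miR-126a-3p, from the same hairpin, the values were 0.03 and 0.40, neither past the threshold. In set B the call of miR-126a-5p with miR-208a-3p was lost given the first principal component (r = 0.14), by Spearman's rho (0.47) and without library 14 (r = 0.46). With miR-499-5p, miR-126a-5p (r = 0.55), miR-126a-3p (r = 0.50) and miR-142a-3p (r = 0.47) passed in set B and not in set A. Given the component of set B, 0 of 50 miRNAs passed with miR-499-5p. The smooth muscle miR-143-3p passed with miR-208a-3p in set B (r = 0.57) and miR-145a-5p with miR-499-5p there (r = -0.45), and neither passed given the component (r = 0.44 and r = -0.14). miR-451a, the red cell miRNA, had r = 0.05 with miR-208a-3p in set A and -0.06 in set B. What part these cell types have in the relations was not tested.

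Each hairpin yields a major arm, which is the member, and a minor arm. The minor arms were rare, and in pooled counts the one of Mir208a did not follow its partner between the sets. Their RefSeq sequences, with the seed in capitals, show that the minor arms of Mir208a and Mir208b also share a seed.
miR-208a-5p: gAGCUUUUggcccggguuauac
miR-208b-5p: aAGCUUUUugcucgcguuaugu
miR-499-3p: gAACAUCAcagcaagucugugcu
miR-208a-5p had 55 counts in 40 libraries and at most 4 in a library (library 9). It made up 0.338% of the Mir208a counts in set A (25 of 7392, 0.229 to 0.499) and 5.55% in set B (30 of 541, 3.91 to 7.81), or 5.65% without library 14. As a share of all pooled counts it had 0.00300% in set A (0.00203 to 0.00443) against 0.00968% in set B (0.00678 to 0.0138). The pooled minor arm was thus higher in the set where the major arm was lower. Only 1 library was above the floor of 3 counts, so no relation between the arms can be read from single libraries. G and C made up 54.5% of miR-208a-5p and 36.4% of miR-208a-3p, and whether base composition has a part in the set difference was not tested. miR-499-3p had 20 counts in 13 libraries, 5 of them in library 44, and made up 0.347% of the Mir499 counts (0.225 to 0.535). By set its share was 0.416% in set A (19 counts) and 0.0835% in set B (1 count). miR-208b-5p had 1 count in each of libraries 29 and 52. The comparison of arms was made after the values had been seen.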

How the data were processed

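Total RNA of mouse hearts was made into QIAseq miRNA libraries and sequenced by the authors. Per the labels and the submitters' processing notes, reads were aligned to mm10 with HISAT2 2.0.6 and counted with HTSeq 0.13.5. Trimming, annotation, strand setting and use of molecular identifiers are not given in the sources used here. The authors deposited raw counts for each mature miRNA, with 1 column per library. The members and lists were chosen with earlier results of these data known.

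Here edgeR 4.0.16 (R 4.3.3) gave TMM factors, log2 CPM with a prior count of 2, and the quasi-likelihood test of slopes. filterByExpr kept 51 of 548 miRNAs, which held 95.7% of counts, among them 2 of the 3 members. Its cutoff was the CPM that 10 counts give at the median library total, reached in at least 63 libraries. miR-208b-3p was scaled with the factors of the kept miRNAs. Sets were made by 2-means clustering on the first principal component, members left out. Correlations had two-sided permutation tests of 100000 resamples (10000 for pairs of other miRNAs) with Benjamini-Hochberg adjustment at 0.05. Intervals are Wilson at 95%. Correlation and slope steps were tested on simulated data. Alternatives were DESeq2 1.42.0 size factors and Wald test, CPM without TMM, no filter, a prior count of 0.5, a pseudocount of 2, totals of at least 5000, rank correlation and partial correlations. Named miRNAs are the members, their other arms, the marker and hypertrophy lists where they passed the filter, and the 3 largest absolute r per member and set. Sequences came from RefSeq (GRCm38.p6, 6 of 6 arms matched) and positions from GENCODE M21. Depth was 1457 to 30202 counts per library.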

Additional observations from a re-analysis of the deposited data

How the results depend on the processing

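The set A relation of miR-208a-3p with miR-499-5p (r from 0.54 to 0.70) and the rising slopes of both passed under every alternative run. Depth limits miR-208b-3p most: at a median of 12248 counts per library, 3 counts are the floor. A prior count of 0.5 moved its median log2 CPM from 7.23 to 5.23, which both stand for a count of 0. The share's chi-square per degree of freedom lost its call without libraries 83, 44 and 50 (0.92 over all, 1.03 in set A). These were chosen for high miR-208b-3p counts or shares, so the value had to fall. In set A it also lost its call without library 83 alone (1.30), but not without library 44 alone (1.48). Over all libraries it kept its call when 83 (1.36), 44 (1.47) or 50 (1.34) alone was left out. In set B, the r of miR-208a-3p with miR-499-5p no longer passed given the first principal component (0.24) or without libraries 14 and 15 (0.41, adjusted p = 0.0578 by permutation). In set A, miR-208a-3p with miR-208b-3p passed over the 6 member relations without libraries 46 and 48 (0.31), and miR-208b-3p with miR-499-5p did not given the library total and number (0.28). The cause was not tested.

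The relations of the log2 ratio of miR-208b-3p to miR-208a-3p were unstable. In set A its r with miR-499-5p turned to -0.021 (Spearman), -0.046 (2 farthest libraries left out) and, past the threshold, -0.31 (pseudocount of 2). With the library total and number it turned to 0.0043 and 0.11 given the first principal component, and passed at -0.42 and -0.28 with a pseudocount of 2. In set B the r with miR-499-5p was 0.075 given that component and -0.40, past the threshold, with a pseudocount of 2. There the r with the library total no longer passed without the 2 farthest libraries (-0.36), nor that with the library number (-0.36 by Spearman, -0.38 given the component, -0.35 without the 2 farthest).

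Counts of miRNAs past the threshold moved as follows. For miR-208a-3p in set A they were 17 of 492 with no filter and 16 given the first principal component. In set B they were 10 without library 14, 9 by Spearman and 7 given the component. For miR-499-5p in set A they were 19 with DESeq2 size factors and 6 without TMM, and in set B 3 by Spearman and 0 given the component. For miR-208b-3p in set A they were 1 with DESeq2 size factors, a prior count of 0.5 or Spearman, and 0 without TMM or with no filter. For the log ratio in set B there was 1 without library 14 and 1 given the library total and number. Slopes passed in 99 of 548 miRNAs with no filter, miR-208b-3p among them (0.25 per 10 libraries, adjusted p = 0.0203, edgeR).

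Given the first principal component of set B, the r of miR-499-5p changed sign with miR-133a-3p (0.053), miR-142a-3p (-0.16), miR-21a-5p (-0.13) and miR-29b-3p (-0.024). Of the other alternatives for single named miRNAs, 318 kept direction and side, 69 lost the call and 2 gained it. No paired analysis was possible because all libraries form 1 group.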
